A study of Homo sapiens with 6 samples.

Results

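The genes described here are the collagen chain genes, whose symbols follow the pattern COL, number, A, number, together with 12 genes for enzymes and a chaperone that act on collagen chains: P4HA1, P4HA2 and P4HA3, PLOD1, PLOD2 and PLOD3, LOX and LOXL1 to LOXL4, and SERPINH1. Of 56 such symbols in the annotation, 51 were listed in at least 1 of the deposited files, among 20824 genes in all, and 39 of the 51 were collagen genes. COL2A1, COL6A5, COL8A2, COL11A1 and COL19A1 were listed in no file. Genes entered by symbol. The cells were A549, an established human lung adenocarcinoma line. The control group of 3 libraries expressed a scrambled shRNA and stands in the labels for wild type, and the 3 other libraries carry the genotype C19orf12 knockdown and titles that start with shC19orf12-1. The labels name no separate cultures behind the replicates, and p-values cover the spread among these libraries alone, which may be technical. RNA was taken from whole cultures, so fewer cells that express a gene and less of its RNA per cell cannot be told apart.

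Collagens are secreted proteins in which chains rich in glycine and proline wind into a triple helix. In the endoplasmic reticulum, prolyl 4-hydroxylases make the hydroxyproline that keeps the helix stable, lysyl hydroxylases modify lysines that later carry crosslinks and sugars, and the chaperone HSP47, encoded by SERPINH1, binds the folded helix. Outside the cell, lysyl oxidases oxidise lysine side chains, and the products crosslink neighbouring molecules. Epithelial cells chiefly make network collagen of the basement membrane, while fibril-forming collagens are typical of fibroblasts.

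Total estimated counts per library lay between 10229890 and 10647587. CPM below are counts scaled by TMM to a common library size, and a gene was called changed at a Benjamini-Hochberg adjusted p under 0.05 by edgeR's quasi-likelihood test over 14812 genes. Scramble replicate 3 stood apart: its log2 CPM correlated at 0.952 and 0.953 with those of scramble replicates 1 and 2, whereas scramble replicates 1 and 2 correlated at 0.991 with each other and at 0.958 to 0.960 with knockdown libraries. The common biological coefficient of variation estimated by edgeR was 18.9%, and 2.97% when this library was left out. Values for the genes described are given with and without it, and far smaller differences pass the test in the latter case. C19orf12 measured 42.5, 41.1 and 63.3 CPM in scramble replicates 1 to 3 and 24.2, 26.4 and 25.2 CPM in knockdown replicates 1 to 3, lower in each knockdown library (log2 fold change -0.95, adjusted p = 0.015, and -0.73 without scramble replicate 3). That call was lost without any 1 of the knockdown libraries (adjusted p = 0.0755 to 0.0908). The 6 epithelial markers summed to between 3199 and 4674 CPM in scramble and between 10218 and 10410 CPM in knockdown libraries, most of it KRT8 and KRT18. KRT8, KRT18 and KRT19 rose (log2 fold changes 1.79, 1.31 and 3.50, and 2.00, 1.52 and 5.28 without scramble replicate 3). KRT19 had 0, 1 and 5 counts in scramble replicates 1 to 3 and 21, 27 and 20 counts in knockdown replicates 1 to 3. It passed the filter on low counts through the knockdown libraries alone, and its call takes no account of this. CDH1, EPCAM and CLDN4 were not called (0.30, 1.06 and -0.01, adjusted p = 0.254, 0.059 and 0.992). Without scramble replicate 3 CDH1 and EPCAM were called higher (0.38 and 0.85, adjusted p = 1.60e-06 and 0.0398) and CLDN4 was not (0.25, adjusted p = 0.575). The part of these differences in the results on collagens was not tested. The 6 fibroblast markers DCN, LUM, PDGFRA, PDGFRB, THY1 and FAP summed to 0.387 to 1.21 CPM in scramble and 1.00 to 1.498 CPM in knockdown libraries. DCN had 2, 0 and 0 counts in scramble replicates 1 to 3 and 0 counts in every knockdown library. LUM and FAP had 0 counts in every scramble library and 4 to 7 counts in each knockdown library. The fibroblast genes lay under the filter on low counts, and LUM and FAP were called higher where no filter was used (adjusted p = 0.0211 and 0.0194). The 3 endothelial markers summed to between 2.71 and 3.90 CPM over the 6 libraries. The leukocyte list summed to between 37.7 and 54.5 CPM, nearly all of it CD68, a lysosomal gene.

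The network collagen genes COL8A1, COL4A3 and COL4A4, the genes COL15A1 and COL17A1, the fibrillar chain genes COL5A2 and COL5A3 and the hydroxylase subunit P4HA3 were higher in the knockdown libraries, and COL6A2, COL5A1, COL1A1 and the crosslinking enzyme LOXL2 were lower. Of the 51 genes 32 had enough counts to be tested, 23 collagen genes and 9 of the enzyme and chaperone genes. Of the 32, 8 were called higher and 4 lower. Over all genes tested 11.5% were called, 5.89% higher and 5.64% lower. COL15A1 and COL17A1 passed the filter on low counts through the knockdown libraries alone, and 27 of the 32 passed it in all 6 libraries. The median log2 fold change was 0.12 over the 32 genes and 0.02 over all genes tested. The groups did not overlap for 11 genes that were higher and 9 that were lower in the knockdown libraries, where 37.0% of all genes did not overlap.

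Without scramble replicate 3, 15 of the 32 genes were called higher and 10 lower, while 49.5% of all genes tested were called in that setting, 25.7% higher and 23.8% lower. All 12 genes called with 6 libraries were called in the same direction there, as were 1707 of the 1708 genes called over all genes tested. Keeping a call in that setting thus sets these 12 apart from few other called genes. With one knockdown library left out, 7 were called whichever it was, 6 higher and 1 lower. COL8A1, COL4A4, COL4A3, COL5A2, COL15A1, COL17A1 and COL6A2 were called in each of the 14 alternative analyses run. The other 5 calls, COL1A1, COL5A1, COL5A3, LOXL2 and P4HA3, were each lost without any 1 of the knockdown libraries. Among the 7 kept, COL15A1 and COL17A1 passed the filter of the main test through the knockdown libraries alone, and the alternatives do not correct for that.

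**Figure D1:**
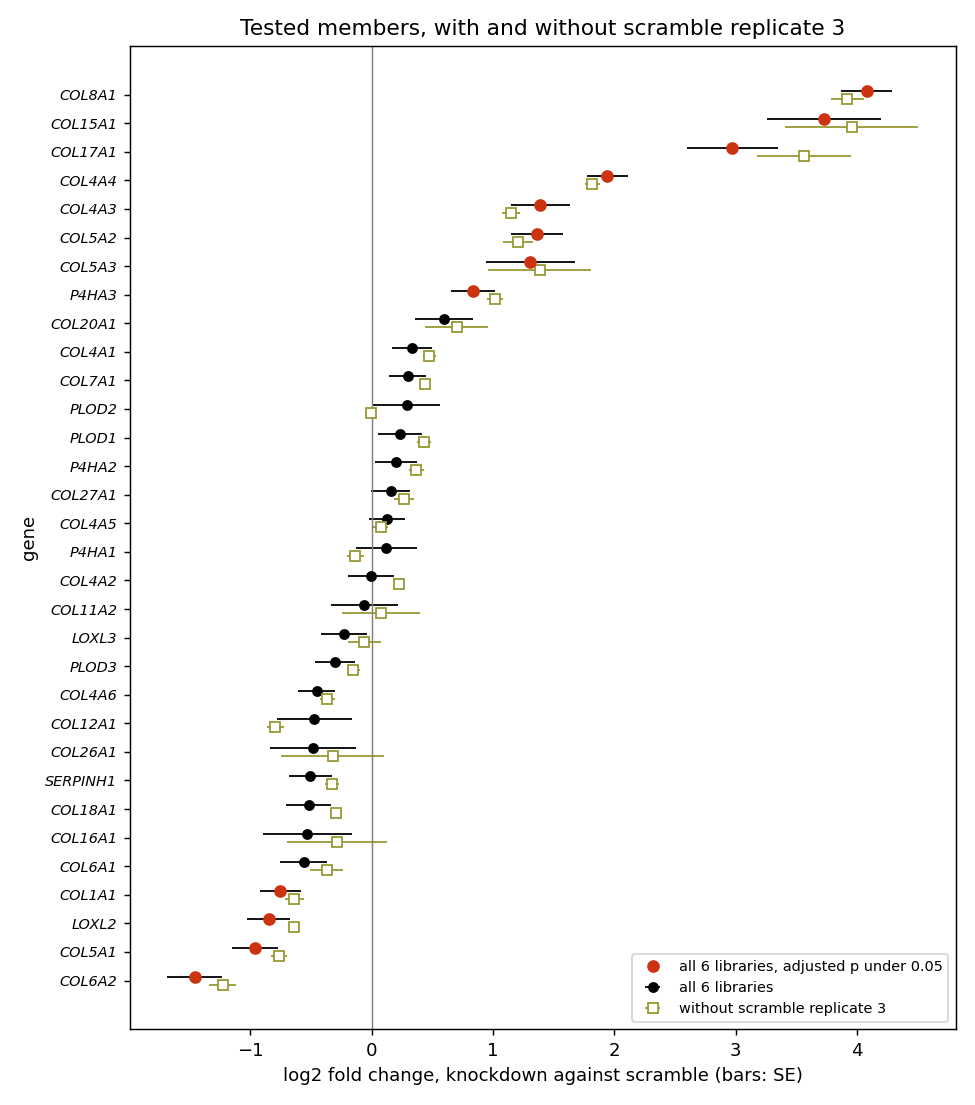
Log2 fold change of knockdown against scramble (x axis) for the 32 tested collagen, enzyme and chaperone genes (y axis), with all 6 libraries (filled circles, red where the adjusted p was under 0.05) and without scramble replicate 3 (open squares); bars are SE. COL8A1 lies highest at 4.08 and COL6A2 lowest at -1.46, and PLOD2, P4HA1, COL4A2 and COL11A2 cross 0 when scramble replicate 3 is left out.

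Of 7 tested network collagen genes, 3 rose and the other 4 were not called, where 5.89% of all genes tested rose and 5.64% fell. Without scramble replicate 3, 5 were called higher and 1 lower, where 25.7% and 23.8% of all genes were. Collagen IV is the main network-forming collagen of basement membranes. Its 6 genes lie in 3 pairs whose members start close to each other and are read in opposite directions, with no other protein-coding gene between them: COL4A1 with COL4A2 on chromosome 13, COL4A3 with COL4A4 on chromosome 2 and COL4A5 with COL4A6 on chromosome X. The COL4A1 and COL4A2 chains make up the network found in nearly all basement membranes. The COL4A3, COL4A4 and COL4A5 chains form a network of the kidney glomerulus and the lung alveolus, and mutations in their genes cause Alport syndrome. With 6 libraries both genes of 1 pair rose and neither gene of the other pairs was called. For this reason the DNA before the starts is shown. It is printed on the plus strand from RefSeq promoters of build GRCh38.p14, with capitals marking the GC box letters GGGCGG and the CCAAT box letters CCAAT on either strand (reverse complements CCGCCC and ATTGG).
COL4A4 to COL4A3, chr2:227164489-227164623: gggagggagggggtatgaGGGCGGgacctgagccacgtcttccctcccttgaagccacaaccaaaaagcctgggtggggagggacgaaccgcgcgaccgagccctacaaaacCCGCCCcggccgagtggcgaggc
COL4A1 to COL4A2, chr13:110307158-110307283: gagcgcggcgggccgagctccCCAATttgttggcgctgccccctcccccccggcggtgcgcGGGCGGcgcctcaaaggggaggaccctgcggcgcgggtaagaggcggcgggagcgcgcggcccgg
COL4A5 upstream, chrX:108439588-108439837: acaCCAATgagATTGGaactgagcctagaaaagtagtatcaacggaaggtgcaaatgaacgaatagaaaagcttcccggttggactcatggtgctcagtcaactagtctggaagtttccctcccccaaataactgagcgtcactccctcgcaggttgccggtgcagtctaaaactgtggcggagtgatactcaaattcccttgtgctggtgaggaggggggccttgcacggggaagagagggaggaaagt

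The first 2 stretches, of 135 and 126 bases, lie between the gene spans of the RefSeq gene table, and the last is the 250 bases before the COL4A5 start. The COL4A4 start of the promoter table, at 227164205, lies inside the COL4A4 span, so that start is farther from COL4A3 than the printed stretch is long. Their GC contents were 68.1%, 80.2% and 51.2%. The stretch between COL4A4 and COL4A3 held 2 GC boxes and 0 CCAAT boxes, and the stretch between COL4A1 and COL4A2 held 1 of each. The COL4A5 stretch held 2 CCAAT boxes and 0 GC boxes. The TATA box letters TATAAA (reverse complement TTTATA) were in none of the 3. Of all 35116 RefSeq promoters, the 135 bases before the start held a GC box in 35.5% and a CCAAT box in 22.1%. In 126 bases these shares were 34.6% and 21.1%, and in 250 bases 42.6% and 32.0%. The TATA box letters were found in 6.13%, 5.87% and 10.7% of promoters at these lengths. A match describes the letters and not a site of binding.

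COL4A4 rose most among the collagen IV genes. It measured 30.3, 31.1 and 23.0 CPM in scramble replicates 1 to 3 and 110, 104 and 111 CPM in knockdown replicates 1 to 3. Every knockdown library lay above every scramble library by more than 3 times (log2 fold change 1.94, SE 0.17, adjusted p = 0.000148), and without scramble replicate 3 the value was 1.82. Its partner COL4A3 measured 21.9, 23.5 and 12.1 CPM in scramble and 50.1, 51.0 and 49.9 CPM in knockdown libraries. Scramble replicate 3 was the lowest of the scramble libraries for both genes, and the COL4A3 log2 fold change was 1.39 with it (SE 0.24, adjusted p = 0.00581) and 1.15 without it. The gene RHBDD1, whose span overlaps that of COL4A4, was at -0.32 (adjusted p = 0.313), and whether strand was used in counting is not given in the sources used here.

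The more abundant pair on chromosome 13 was not called with 6 libraries. COL4A1 measured 77.8, 79.3 and 103 CPM in scramble and 111, 104 and 113 CPM in knockdown libraries (log2 fold change 0.34, SE 0.16, adjusted p = 0.241). COL4A2 measured 261, 259 and 395 CPM in scramble and 312, 296 and 304 CPM in knockdown libraries (log2 fold change -0.01, SE 0.19, adjusted p = 0.991). The knockdown libraries of COL4A2 thus lay above scramble replicates 1 and 2 and below scramble replicate 3. Without scramble replicate 3 both were called higher, COL4A1 at 0.48 (adjusted p = 1.24e-07) and COL4A2 at 0.22 (adjusted p = 3.28e-05).

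On the X chromosome the paired genes did not move alike. COL4A5 measured 64.0, 72.7 and 61.4 CPM in scramble and 73.3, 71.0 and 71.9 CPM in knockdown libraries (log2 fold change 0.13, adjusted p = 0.662, and 0.08 without scramble replicate 3, adjusted p = 0.322). COL4A6 measured 74.2, 73.3 and 87.7 CPM in scramble and 58.5, 54.7 and 58.9 CPM in knockdown libraries (log2 fold change -0.45, adjusted p = 0.0942). The COL4A6 groups did not overlap, and without scramble replicate 3 the gene was called lower (-0.36, adjusted p = 1.91e-05).

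**Figure D2:**
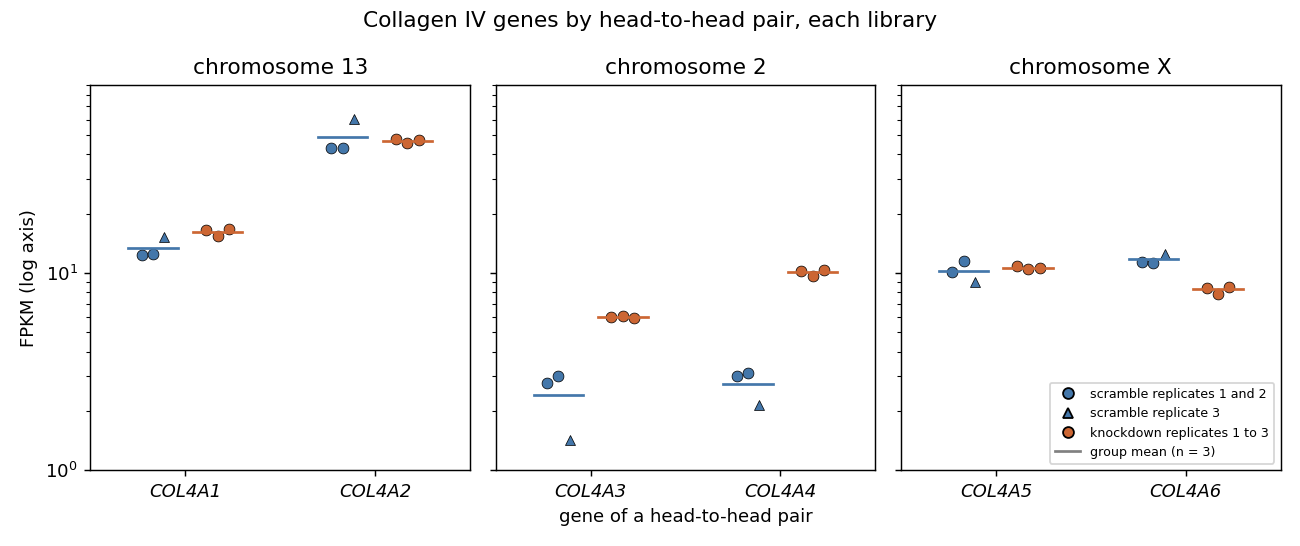
Deposited FPKM (y axis, log scale) of the 6 collagen IV genes in each library, by head-to-head pair; bars are means of 3 libraries and triangles are scramble replicate 3. COL4A3 and COL4A4 lie higher in all 3 knockdown libraries, and the other 4 genes show smaller differences.

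COL8A1, a short-chain network collagen of blood vessel walls and of the membrane under the corneal endothelium, had the largest log2 fold change of the 32 tested genes with 6 libraries. Without scramble replicate 3 that of COL15A1 was larger (3.96, against 3.92 for COL8A1). It measured 2.69, 2.97 and 1.94 CPM in scramble replicates 1 to 3 and 41.1, 41.1 and 47.0 CPM in knockdown replicates 1 to 3. The means were 2.53 ± 0.535 and 43.1 ± 3.38 CPM (SD, n = 3 each), a 17.002-fold difference (log2 fold change 4.08, SE 0.21, adjusted p = 6.77e-06). COL10A1, the hypertrophic cartilage collagen of the same structural class, had 1 count in 1 knockdown library and 0 in the others.

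The fibrillar chains split by gene. COL1A1 encodes a chain of the most abundant collagen of bone and skin, and COL5A1 and COL5A2 encode chains of collagen V, which sits inside collagen I fibrils and limits their width. COL5A1 measured 71.4, 78.2 and 108 CPM in scramble and 45.4, 44.7 and 42.1 CPM in knockdown libraries (log2 fold change -0.96, SE 0.19, adjusted p = 0.0109). COL5A2 went the other way, from 10.5, 13.6 and 8.23 CPM in scramble to 31.6, 24.8 and 26.9 CPM in knockdown libraries (log2 fold change 1.37, SE 0.21, adjusted p = 0.00347). Neither gene's groups overlapped, and without scramble replicate 3 the values were -0.76 and 1.21. COL1A1 measured 36.2, 39.5 and 47.5 CPM in scramble and 23.5, 25.7 and 24.0 CPM in knockdown libraries (log2 fold change -0.75, SE 0.17, adjusted p = 0.0191, and -0.63 without scramble replicate 3).

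The third collagen V chain, COL5A3, was near the limit of detection with 12, 4 and 9 counts in scramble and 19, 20 and 20 in knockdown libraries. Its call was marginal (log2 fold change 1.31, SE 0.37, adjusted p = 0.04995, and 1.39, adjusted p = 0.00933, without scramble replicate 3). It was lost under 8 of the 14 alternatives, where the highest adjusted p was 0.163, and without scramble replicate 2 the log2 fold change was 0.96. COL5A3 reached the cutoff of the filter on low counts in 1 scramble library and 3 knockdown libraries, and the p-values take no account of this. COL27A1, a cartilage fibrillar collagen, measured between 26.8 and 34.0 CPM in scramble and between 31.4 and 35.1 CPM in knockdown libraries, with overlapping groups (log2 fold change 0.16, adjusted p = 0.62). It was called higher without scramble replicate 3 (0.27, adjusted p = 0.00791). COL11A2 was at 2.05 and 1.96 CPM on average (log2 fold change -0.06, adjusted p = 0.929, and 0.08, adjusted p = 0.869, without scramble replicate 3). The partner chains of fibroblast fibrils were almost absent: COL1A2 had at most 1 count and COL3A1 at most 2 counts in any library. COL3A1 is the neighbour of COL5A2 on chromosome 2, with no protein-coding gene between them, and its counts were under the filter.

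Collagen VI forms beaded filaments around cells, and its COL6A2 chain gene fell. COL6A2 measured 28.3, 28.7 and 43.3 CPM in scramble and 11.2, 14.6 and 10.7 CPM in knockdown libraries, with no overlap (log2 fold change -1.46, SE 0.23, adjusted p = 0.00329, and -1.23 without scramble replicate 3). Its neighbour on chromosome 21, COL6A1, measured 10.9, 10.7 and 15.4 CPM in scramble and 8.60, 7.89 and 8.54 CPM in knockdown libraries. The COL6A1 groups did not overlap, but the gene did not pass the test with 6 libraries (log2 fold change -0.56, adjusted p = 0.105, and -0.37, adjusted p = 0.0288, without scramble replicate 3). COL6A3, the third chain of the usual collagen VI molecule, had 5, 7 and 13 counts in scramble and 2, 3 and 2 counts in knockdown libraries and was not tested.

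Among collagens that sit at or near the epithelial cell surface, COL17A1 and COL15A1 rose from very low levels. COL17A1 encodes the transmembrane collagen of hemidesmosomes, the junctions that fix epithelial cells to the basement membrane. It had 5, 3 and 10 counts in scramble replicates 1 to 3 and 51, 37 and 48 counts in knockdown replicates 1 to 3. The summed counts, 18 and 136, give a ratio of 8.004 after scaling, with a 95% interval of 4.88 to 13.9 (exact, counting error only). edgeR gave a log2 fold change of 2.97 (SE 0.37, adjusted p = 0.00114), or 3.56 without scramble replicate 3. COL15A1, a basement membrane zone collagen with a cleavable antiangiogenic end, had 2, 2 and 3 counts in scramble and 35, 39 and 18 counts in knockdown libraries. The ratio of summed counts, 7 and 92, was 13.9 with a 95% interval of 6.49 to 35.6. edgeR gave a log2 fold change of 3.73 (SE 0.47, adjusted p = 0.0011), or 3.96 without scramble replicate 3. Both genes passed the filter on low counts through the knockdown libraries alone. That the groups do not overlap followed from this, and the p-values and intervals take no account of it.

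COL18A1, the relative of COL15A1 whose end piece is endostatin, was far more abundant and did not pass the test with 6 libraries. It measured 194, 191 and 291 CPM in scramble and 161, 156 and 155 CPM in knockdown libraries (log2 fold change -0.52, adjusted p = 0.116). COL7A1, the collagen of the anchoring fibrils beneath epithelia, measured 311, 326 and 418 CPM in scramble and 432, 433 and 430 CPM in knockdown libraries (log2 fold change 0.30, adjusted p = 0.275). For both genes the groups did not overlap, and without scramble replicate 3 COL18A1 was called lower (-0.29, adjusted p = 3.45e-06) and COL7A1 higher (0.44, adjusted p = 7.12e-10).

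**Figure D3:**
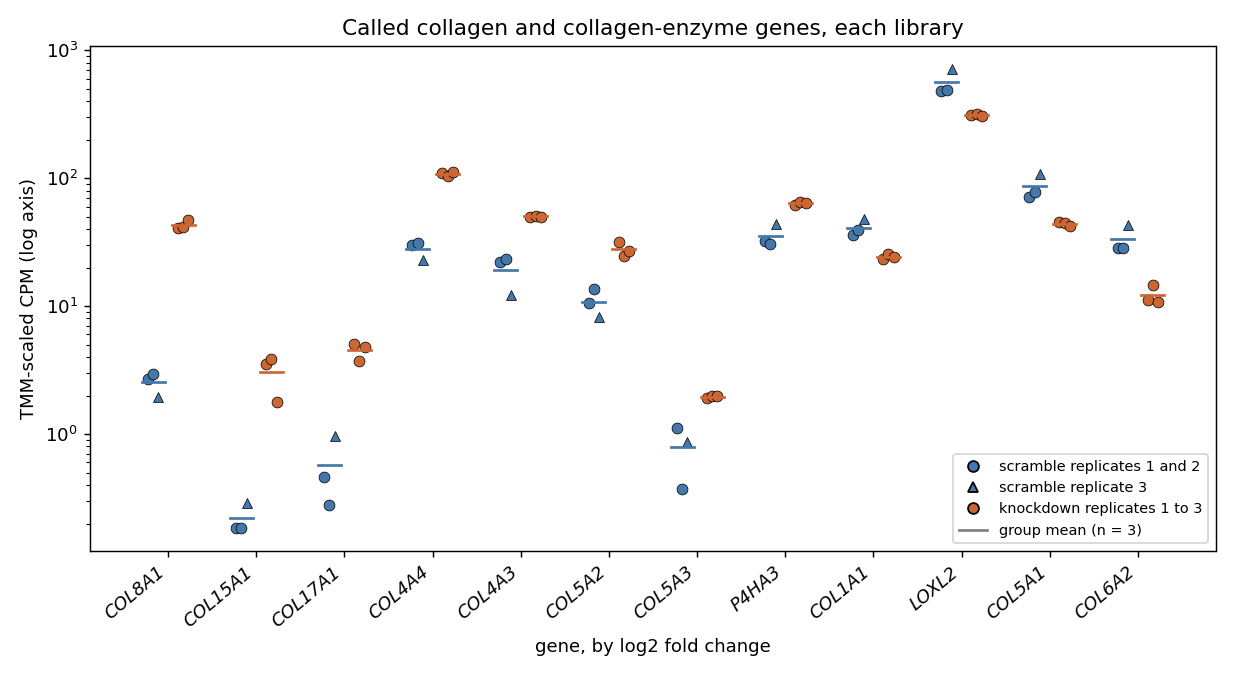
TMM-scaled CPM (y axis, log scale) of the 12 called genes in each library, ordered by log2 fold change; bars are means of 3 libraries and triangles are scramble replicate 3. The groups are apart for all 12 genes, and COL5A3, COL15A1 and COL17A1 reach at most 5.10 CPM in any library. COL15A1 and COL17A1 passed the filter on low counts through the knockdown libraries alone.

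Collagens that attach to the surface of fibrils (FACIT) gave 0 calls by edgeR with 6 libraries and no correction among the 3 tested. Of these, 1 was at an unadjusted p under 0.05, and DESeq2 and limma-voom gave 0 calls. With the correction for GC content and length edgeR called COL12A1 lower (-0.60, adjusted p = 0.0464) and COL20A1 higher (0.68, adjusted p = 0.0315). COL12A1 measured 52.1, 53.3 and 21.1 CPM in scramble and 30.6, 28.8 and 31.9 CPM in knockdown libraries. Scramble replicate 3 was the lowest of all 6 libraries and scramble replicates 1 and 2 the highest, so the log2 fold change moved from -0.47 (SE 0.31, adjusted p = 0.394) to -0.79 (adjusted p = 2.53e-09) without it. COL16A1 lay between 0.894 and 2.03 CPM over the 6 libraries (log2 fold change -0.53, adjusted p = 0.42, and -0.29, adjusted p = 0.603, without scramble replicate 3). COL20A1 lay between 2.04 and 2.91 CPM in scramble and between 3.38 and 4.49 CPM in knockdown libraries (log2 fold change 0.60, adjusted p = 0.153). These groups did not overlap, and without scramble replicate 3 the gene was called higher (0.70, adjusted p = 0.0289). COL26A1, tested among the remaining collagens, averaged 1.35 and 0.965 CPM (log2 fold change -0.48, adjusted p = 0.454, and -0.32, adjusted p = 0.569, without scramble replicate 3).

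Counts fell under the filter for 19 of the 51 genes, 16 of them collagen genes, and 14 of these had under 4 counts in every library. The others were COL6A3, COL9A3, COL28A1, LOX and LOXL4, with at most 14 counts, a level reached by LOX in knockdown replicate 2 and by LOXL4 in scramble replicate 3. Where no filter was used these 19 genes were tested too, and 0 were called by edgeR (lowest adjusted p = 0.097).

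Ratios between the chains of 1 collagen were compared within each library, using FPKM, which the authors scaled for transcript length. The ratio of COL5A1 to COL5A2 was 5.57, 4.72 and 10.8 in scramble and 1.17, 1.48 and 1.28 in knockdown libraries. The knockdown mean was 0.187 times the scramble mean of 7.02, which scramble replicate 3 raised. Against scramble replicates 1 and 2 alone the fall was smaller. The usual collagen V molecule holds more COL5A1 than COL5A2 chains. The ratio of COL6A2 to COL6A1 was 3.31, 3.37 and 3.53 in scramble and 1.65, 2.31 and 1.59 in knockdown libraries. The ratio of COL4A4 to COL4A3 was 1.08, 1.04 and 1.49 in scramble and 1.72, 1.60 and 1.75 in knockdown libraries. The ratios of COL4A2 to COL4A1 (means 3.62 ± 0.295 and 2.90 ± 0.0875) and of COL4A5 to COL4A6 (means 0.874 ± 0.150 and 1.29 ± 0.0427, SD, n = 3 each, exact test below) also did not overlap between groups. Each of these 5 ratios gave p = 0.1 by a 2-sided exact permutation test, the smallest that 3 against 3 libraries allow, and 0.16 after Benjamini-Hochberg adjustment over the 8 ratios compared. The remaining 3 ratios, all between enzymes, overlapped between groups.

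**Figure D4:**
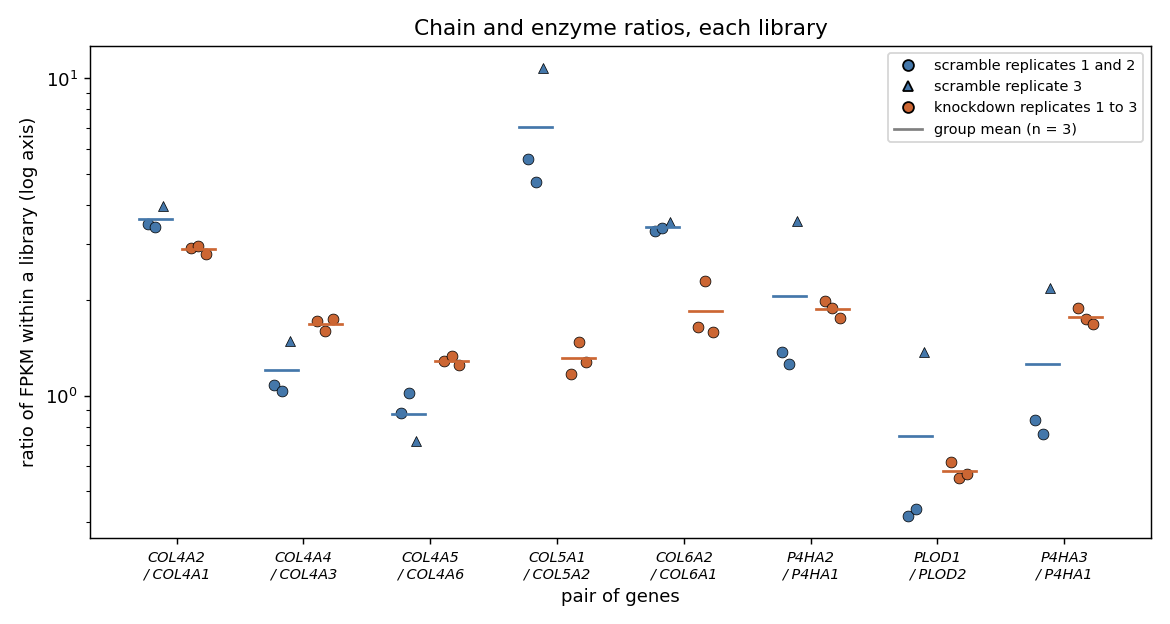
Ratio of FPKM between 2 genes in each library (y axis, log scale) for 8 pairs of collagen chains or enzymes; bars are means of 3 libraries and triangles are scramble replicate 3. The 5 collagen pairs separate by group, most widely COL5A1 to COL5A2 (means 7.02 and 1.31, the former raised by scramble replicate 3 at 10.8). In the 3 enzyme pairs scramble replicate 3 lies above all other libraries.

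Per length, the most abundant collagen transcripts were the same 3 in all libraries. COL4A2 had 42.9, 42.9 and 60.4 FPKM in scramble and 48.1, 45.6 and 47.1 FPKM in knockdown libraries. COL18A1 had 36.8, 36.5 and 51.2 FPKM in scramble and 28.5, 27.7 and 27.7 FPKM in knockdown libraries, and COL7A1 had 34.9, 36.9 and 43.5 FPKM and 45.5, 45.6 and 45.4 FPKM. The order of COL18A1 and COL7A1 thus differed between scramble replicates 1 and 2: COL18A1 was above in the first and below in the second. Summed over the 39 collagen genes, FPKM was 194, 199 and 242 in scramble and 216, 210 and 215 in knockdown libraries, and these ranges overlap. COL4A2 held 21.5% to 25.0% of the scramble sums and 21.7% to 22.2% of the knockdown sums. COL18A1 held 18.3% to 21.2% and 12.9% to 13.2%, and COL7A1 18.0% to 18.5% and 21.0% to 21.7%. COL8A1, at 0.847 ± 0.205 FPKM in scramble, reached 13.8 ± 1.11 FPKM in knockdown libraries (SD, n = 3 each), close to COL4A1 at 16.2 ± 0.766 FPKM there.

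Among the enzymes, LOXL2 fell and P4HA3 rose. LOXL2, a lysyl oxidase that crosslinks collagen IV, was the most abundant of all the genes described here per length, with 131, 133 and 180 FPKM in scramble and 79.9, 80.2 and 78.4 FPKM in knockdown libraries. In CPM it measured 483, 488 and 714 in scramble and 314, 315 and 307 in knockdown libraries, with no overlap (log2 fold change -0.85, SE 0.18, adjusted p = 0.0151, and -0.64 without scramble replicate 3). LOXL2-AS1, an antisense gene overlapping LOXL2, was listed with a mean of 182 counts against 4534 for LOXL2, and its log2 fold change was -0.73 (adjusted p = 0.0438). Reads from the overlap cannot be told apart if strand was not used. P4HA3, a catalytic subunit of prolyl 4-hydroxylase, measured 32.3, 30.6 and 43.9 CPM in scramble and 61.9, 64.6 and 64.5 CPM in knockdown libraries (log2 fold change 0.84, SE 0.18, adjusted p = 0.0163, and 1.02 without scramble replicate 3). PPME1, whose span overlaps P4HA3, was at -0.24 (adjusted p = 0.441). The P4HA3 call was also lost without scramble replicate 1 (adjusted p = 0.0641) or 2 (adjusted p = 0.0674).

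The other prolyl 4-hydroxylase subunits were not called with 6 libraries. P4HA1 measured 48.2, 51.1 and 25.4 CPM in scramble and 41.2, 46.3 and 48.2 CPM in knockdown libraries (log2 fold change 0.12, adjusted p = 0.815, and -0.13 without scramble replicate 3, adjusted p = 0.129). P4HA2 measured 49.8, 48.4 and 67.2 CPM in scramble and 61.3, 65.9 and 63.1 CPM in knockdown libraries (log2 fold change 0.20, adjusted p = 0.534, and 0.37 without scramble replicate 3, adjusted p = 3.20e-05). In both, scramble replicate 3 lay on the far side of the knockdown libraries from scramble replicates 1 and 2.

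The 3 lysyl hydroxylase genes had 0 calls by edgeR, DESeq2 or limma-voom with 6 libraries and no correction, and 0 at an unadjusted p under 0.05 in edgeR. Without scramble replicate 3, 1 was called higher and 1 lower. With the correction for GC content and length PLOD1 was called higher (0.32, adjusted p = 0.0084) and PLOD3 lower (-0.21, adjusted p = 0.0354). PLOD2, which hydroxylates the lysines at the chain ends that become crosslinks, measured 208, 210 and 93.0 CPM in scramble and 203, 217 and 206 CPM in knockdown libraries. The log2 fold change of 0.29 (SE 0.28, adjusted p = 0.578) became -0.0041 (adjusted p = 0.949) when scramble replicate 3 was left out. PLOD1 measured 65.2, 69.3 and 96.3 CPM in scramble and 94.3, 89.8 and 87.9 CPM in knockdown libraries (log2 fold change 0.24, adjusted p = 0.478, and 0.43, adjusted p = 1.33e-06, without scramble replicate 3). PLOD3, which also adds sugars to hydroxylysine, measured 75.0, 77.9 and 102 CPM in scramble and 70.2, 67.3 and 69.3 CPM in knockdown libraries (log2 fold change -0.30, adjusted p = 0.31). Its groups did not overlap, and without scramble replicate 3 it was called lower (-0.15, adjusted p = 0.0301). SERPINH1 measured 76.5, 75.7 and 106 CPM in scramble and 59.2, 61.3 and 61.6 CPM in knockdown libraries, with no overlap (log2 fold change -0.51, adjusted p = 0.105, and -0.33, adjusted p = 4.09e-05, without scramble replicate 3). LOXL3 lay between 9.57 and 13.8 CPM in scramble and between 9.09 and 10.3 CPM in knockdown libraries (log2 fold change -0.23, adjusted p = 0.52, and -0.06, adjusted p = 0.758, without scramble replicate 3).

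Of 40 other tested genes that help to fold, export, cleave, bind or degrade collagen, 5 rose and 5 fell, with a median log2 fold change of -0.03, where 5.89% of all genes tested rose and 5.64% fell. Without scramble replicate 3, 12 were called higher and 13 lower, where 25.7% and 23.8% of all genes were. By role, the genes of propeptide cleavage, which are not all proteases, had 3 of 6 tested genes higher and 0 lower. BMP1, which cuts the end propeptide from fibrillar procollagens and also activates lysyl oxidase, rose from 57.0 ± 11.7 to 121 ± 6.04 CPM (log2 fold change 1.09, adjusted p = 0.00474, and 1.26 without scramble replicate 3). Its relative TLL1 rose from 0.561 to 2.63 CPM (log2 fold change 2.19, adjusted p = 0.00322, and 1.90 without scramble replicate 3). The scramble mean of TLL1 lay under the filter cutoff of 0.974 CPM, so the gene entered the test mainly through the knockdown libraries. Its p-value takes no account of this. FURIN, which activates BMP1, rose from 134 ± 28.0 to 209 ± 4.22 CPM (0.64, adjusted p = 0.0449), a call that was lost when any library other than scramble replicate 3 was left out. Its log2 fold change without that library was 0.82.

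Assembly partners had 2 genes higher and 1 lower of 4 tested, where 5.89% of all genes tested rose and 5.64% fell. Without scramble replicate 3 the calls were again 2 higher and 1 lower, where 25.7% and 23.8% of all genes were called. The fibronectin gene FN1, on which cells lay down collagen fibrils, measured 905, 921 and 886 CPM in scramble and 423, 414 and 435 CPM in knockdown libraries (log2 fold change -1.09, adjusted p = 0.00073, and -1.11 without scramble replicate 3), and scramble replicate 3 lay beside the other scramble libraries. TGM2, a transglutaminase that crosslinks matrix proteins, measured 577, 597 and 861 CPM in scramble and 1840, 1820 and 1788 CPM in knockdown libraries (log2 fold change 1.42, adjusted p = 0.000997, and 1.63 without scramble replicate 3). THBS1, thrombospondin, rose from 17.5 ± 2.76 to 41.2 ± 2.43 CPM (1.23, adjusted p = 0.00218, and 1.11 without scramble replicate 3).

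Folding helpers had 2 of 12 tested genes lower and 0 higher with 6 libraries, and 5 lower and 4 higher without scramble replicate 3. Over all genes tested 5.64% were called lower and 5.89% higher with 6 libraries, and 23.8% and 25.7% without scramble replicate 3. FKBP10, a prolyl isomerase of the endoplasmic reticulum needed for collagen crosslinking, fell from 251 ± 50.7 to 119 ± 3.60 CPM (log2 fold change -1.08, adjusted p = 0.0041, and -0.90 without scramble replicate 3). P3H3 fell from 14.6 ± 2.80 to 7.01 ± 0.0333 CPM (-1.06, adjusted p = 0.00696, and -0.89 without that library). P4HB, the protein disulfide isomerase that is the other subunit of prolyl 4-hydroxylase, was at -0.02 (adjusted p = 0.962), PPIB at -0.34 (adjusted p = 0.284) and CRTAP at 0.12 (adjusted p = 0.714). Without scramble replicate 3, P4HB (0.20, adjusted p = 4.31e-06) and CRTAP (0.29, adjusted p = 3.34e-07) were called higher and PPIB (-0.12, adjusted p = 0.00805) lower. Collagen receptors had 2 of 9 tested genes lower and 0 higher, and 4 lower and 0 higher without scramble replicate 3. The shares of all genes called lower in these 2 settings were 5.64% and 23.8%. ITGA10, a collagen-binding integrin chain, fell from 6.37 ± 1.90 to 1.26 ± 0.210 CPM (-2.32, adjusted p = 0.0012, and -2.06 without scramble replicate 3). MRC2, which takes up collagen for breakdown, fell from 294 ± 66.5 to 154 ± 5.89 CPM (-0.94, adjusted p = 0.00994, and -0.74 without scramble replicate 3). The MRC2 call was lost without any 1 of the knockdown libraries (adjusted p = 0.0609 to 0.0724). ITGB1, the shared partner chain of these integrins, was at -0.11 (adjusted p = 0.825) and was called lower without scramble replicate 3 (-0.39, adjusted p = 2.62e-11). Genes of export and transcription (6 tested) and of turnover (3 tested) had 0 calls by edgeR, DESeq2 or limma-voom and 0 genes at an unadjusted p under 0.05 in edgeR with 6 libraries. Without scramble replicate 3 edgeR called 2 export and transcription genes higher and 3 lower, and 1 turnover gene higher. With the correction for GC content and length it called 1 export and transcription gene higher and 3 lower, and 1 turnover gene higher. Over all genes, 15.4% were called higher and 18.7% lower with that correction.

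The place of scramble replicate 3 among the libraries differed from gene to gene and moved with base composition. Over all genes with a GC value, the median difference of log2 CPM between scramble replicate 3 and the mean of scramble replicates 1 and 2 was -1.02 for the lowest of 10 equal bins of GC content and 0.50 for the highest. The cause of this shift was not tested. The median GC content of the tested genes described here was 58.2%, against 49.4% over all genes tested. It was 60.8% for the collagen genes and 56.6% for the enzyme and chaperone genes. Glycine and proline, frequent in collagen chains, have codons rich in G and C, and the part of this in the GC content was not tested. Over all 14812 genes tested, 8153 were higher in scramble replicate 3 than in the other scramble libraries, with a median difference of 0.13. Of the 32 tested genes described here, 24 were higher there, with a median difference of 0.39. The exceptions included the AT-rich PLOD2 (37.5% GC, difference -1.17) and P4HA1 (40.8% GC, difference -0.96), and COL12A1 (47.7% GC, difference -1.31). Across the 31 tested genes with a GC value the Pearson correlation of GC content and this difference was 0.79, over genes that share the same 3 libraries. The 3 called genes COL4A3, COL4A4 and COL5A2 differed in scramble replicate 3 by -0.89, -0.41 and -0.52. Their calls held without that library, as did 1707 of the 1708 calls over all genes tested. With a correction for GC content and length, 13 of 31 genes were called higher and 9 lower, where 34.1% of all genes were called. Beyond the genes called without the correction, those higher were COL4A1, COL7A1, COL20A1, P4HA2 and PLOD1. Those lower were COL4A6, COL6A1, COL12A1, COL18A1, PLOD3 and SERPINH1. The corrected log2 fold changes were 4.12 for COL8A1, 1.83 for COL4A4, 1.31 for COL4A3 and -1.35 for COL6A2.

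**Figure D5:**
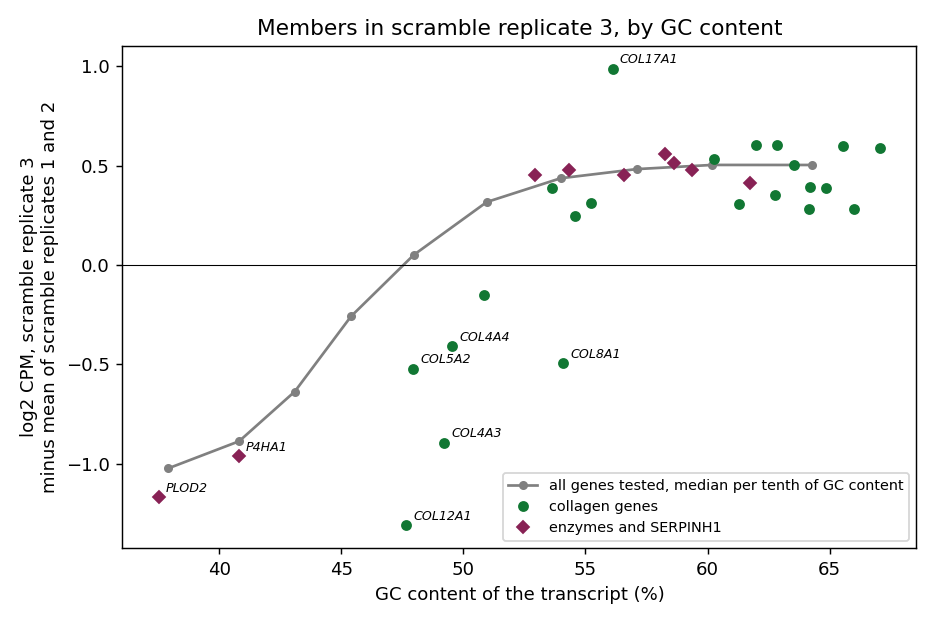
Difference in log2 CPM (y axis) between scramble replicate 3 and the mean of scramble replicates 1 and 2, against transcript GC content in percent (x axis), for the 31 tested genes with a GC value; the grey line joins medians over all genes tested in 10 equal bins of GC content. Most of the genes with a high GC content lie above 0, while PLOD2 (-1.17), P4HA1 (-0.96), COL12A1 (-1.31) and COL4A3 (-0.89) lie lowest.

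The deposited mean transcript length, which shifts when the mixture of isoforms changes, was compared for the 17 tested genes with more than 1 transcript. In 16 the groups overlapped. In LOXL3 they did not, with 3114, 3118 and 3088 bases in scramble and 3036, 3083 and 3065 bases in knockdown libraries (2-sided exact permutation p = 0.1, the smallest possible, and 1 after adjustment over the 17 genes). COL18A1, whose promoters give short and long forms, stayed between 5443 and 5456 bases in all 6 libraries.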

How the data were processed

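Polyadenylated RNA of 6 libraries was sequenced, per the labels' protocols. The deposited files hold RSEM expected counts per gene, FPKM scaled by the authors for length and depth, and, per the file headers, a length for each gene. BWA, Bowtie2, RSEM and build hg19 are named in the submitters' processing notes; no source used here gives versions or the role of each aligner. A gene missing from a file was taken as 0 counts. Entrez IDs were matched to symbols with the RefSeq annotation of GRCh38 for 20727 of 20824 IDs; the 97 others held 0.147% of the counts.

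Expected counts were rounded and tested with edgeR 4.0.16 (R 4.3.3; filterByExpr, minimum count 10 and minimum total 15; TMM; glmQLFit and glmQLFTest) over 14812 genes, knockdown against scramble, without covariates. SE is the log2 fold change divided by the square root of F. The test was checked on simulated data. Alternatives were RLE and upper-quartile scaling, no filter, a filter at 1 CPM in 3 libraries, a replicate block, leaving out each library, DESeq2 1.42.0, limma-voom 3.58.1, and a spline correction (5 degrees of freedom) for GC content, from GENCODE transcripts, and length. Differences between scramble libraries used log2(CPM + 0.25).

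Named are C19orf12, all called members, uncalled tested members with a mean of at least 5 CPM, and of the other pathway genes up to 12 called and 4 uncalled; other members are named with levels or counts. The members and gene lists were chosen with earlier results of these data known. Promoters were matched for 39 of the 51 genes, 25 of them tested. Library numbers are shared by both groups. Deviations of same-numbered libraries from their group means correlated at -0.024, -0.018 and -0.023. Scramble replicate 3 stood apart and dominates the scramble deviations, so these values cannot decide whether libraries were paired. Libraries were not treated as pairs in the main test, and the replicate block was run as an alternative. Figures were drawn with matplotlib 3.10.9.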

Additional observations from a re-analysis of the deposited data

How the results depend on the processing

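RLE or upper-quartile scaling, other filters, DESeq2 and limma-voom kept the counts of called genes within 1.5 times. The replicate block gave 1654 calls over all genes, 12 collagen and enzyme genes and 9 other pathway genes, against 1708, 12 and 10. With the GC content and length correction 4853, 22 and 18 genes were called; the cause was not tested. Leaving out 1 library gave 729 to 7439 calls over all genes, 7 to 25 of the collagen and enzyme genes and 8 to 25 of the other pathway genes, lowest without a knockdown library and highest without scramble replicate 3. Genes with small changes turned direction. COL4A2 was at 0.024 with the replicate block, 0.024 with limma-voom, 0.046 with the GC correction and -0.12 to 0.22 with a library left out. P4HB was at 0.0072 with the replicate block, 0.0072 with limma-voom, 0.080 with the GC correction and -0.13 to 0.20 with a library left out. P4HA1 was at -0.054 with the GC correction and -0.13 to 0.29 with a library left out, and in that setting PLOD2 ranged from -0.0041 to 0.46 and ITGB1 from -0.39 to 0.048. None of these 5 genes was called by edgeR with 6 libraries and no correction, and ITGB1 was called lower with the GC correction (-0.29, adjusted p = 0.0109). Without the filter on low counts 0 of the 19 collagen and enzyme genes under it were called, and 2 of 13 other pathway genes, FAP and LUM.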
